A study of Oreochromis niloticus with 8 samples.

Results

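Genes that build, load and move cilia were examined in midbrain RNA of Nile tilapia (Oreochromis niloticus), a warm-water cichlid fish. RNA sequencing gave 8 libraries, 4 labelled normothermy (control 1 to 4) and 4 labelled cold exposed (cold 1 to 4). Both groups share the species and the tissue label, while neither temperature nor duration of exposure is stated in the labels, and nor is the strain, sex or age of the fish. Members were taken by gene symbol, from families named for intraflagellar transport (ift), the BBSome (bbs), axonemal dyneins (dnah, dnai, dnal), cilia and flagella associated proteins (cfap), radial spokes (rsph), tektins (tekt), sperm-associated antigens (spag), the transition zone (nphp, tctn, mks1) and centrosomes (cep). A few further transport genes (among them wdr and ttc genes) completed the set. Of 120 such genes among the 29533 listed, 111 reached a mean of 1 TPM (transcripts per 1000000, a level scaled by gene length and library total) in control or cold and are the members described. The 9 others were dnah1, dnah2, dnah7, dnah8, dnah12, cep63, cfap221, cfap299 and tekt3. Just inside that limit were cfap61 (control and cold means of 1.20 and 0.614 TPM) and cep55 (0.931 and 1.23 TPM), and just outside it dnah7 (0.939 and 0.631 TPM) and dnah12 (0.902 and 0.613 TPM).

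A cilium is a microtubule shaft that grows from a basal body, a centriole docked at the cell surface. Trains of intraflagellar transport proteins carry material up and down the shaft, the BBSome loads membrane proteins for export, and the transition zone at the base acts as a gate. Most neurons and glia carry a single immotile primary cilium, which serves signalling, whereas the ependymal cells lining the brain ventricles carry motile cilia, whose dynein arms, radial spokes and central pair produce the beat that moves cerebrospinal fluid. In dividing cells the same centrioles form the centrosome and are duplicated once per cycle, so the cep genes serve both structures.

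Each library's values sum to a fixed total, so absolute depth is unknown. From 17842 to 18506 genes per library stood at 1 TPM or more. Nothing in the labels ties a library to 1 animal or to a pool, and p-values therefore describe only how these 8 libraries vary, which may be technical. On the second principal component (16.9% of the variance) control 4 and cold 2 stood apart from the other 6 libraries, so the counts of the whole set and of its larger classes are also given without them. The midbrain label was checked against its markers: the patterning genes en1b (means of 27.9 and 18.5 TPM in control and cold) and lmx1bb (15.6 and 9.58 TPM) were present in both groups. Of 15 tested midbrain markers 0 rose and 6 fell (40%, against 23.6% of all tested genes). Their summed level was 119 to 168 TPM in control and 99.5 to 114 TPM in cold. RNA of hypothalamic peptides was abundant as well, with summed marker levels of 811 to 3116 TPM in control and 1185 to 6053 TPM in cold, chiefly from avp and oxt. In bulk tissue, fewer cells of a type and less RNA per cell cannot be told apart.

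Cilium genes changed in both directions, and most of the changes were modest. By limma on log2(TPM + 1), with p adjusted over the whole table of 18863 tested genes and calls made at an adjusted p under 0.05, 10 members rose in cold, 30 fell and 71 did not pass. Among all tested genes 36.7% were called, 13% as higher and 23.6% as lower, and among the members 36% were called, 9.01% as higher and 27% as lower. The share of called members is thus near the background. The median log2 change (cold minus control throughout) was -0.22 for the members and -0.09 for all tested genes, and 82 of 111 members (73.9%) had a change below 0 against 60.1% of all tested genes. After the TPM were rescaled by the median of ratios, which brought the median of all genes to 0.00, 15 members rose and 16 fell (backgrounds of 18.5% and 16.8%), 26 of the 40 calls were kept, the 5 further rises were those of dnal4, spag1, spag5, cfap97 and cep83, and the members' median was -0.14. Without control 4 and cold 2, 9 rose and 21 fell, against 2061 and 3471 of all 18795 tested genes.

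The levels of the 2 groups did not overlap for 44 members (39.6%), 13 higher and 31 lower in cold, against 36.9% of all tested genes. Calls with an absolute log2 change of at least 0.5 were held by 17 members (15.3%), 5 higher and 12 lower, against 17.4% of all tested genes. Classes differed in the direction of their calls, and the sections that follow take them from the centriole outward to the beating shaft. Whether one class differed from another was not tested.

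**Figure D1:**
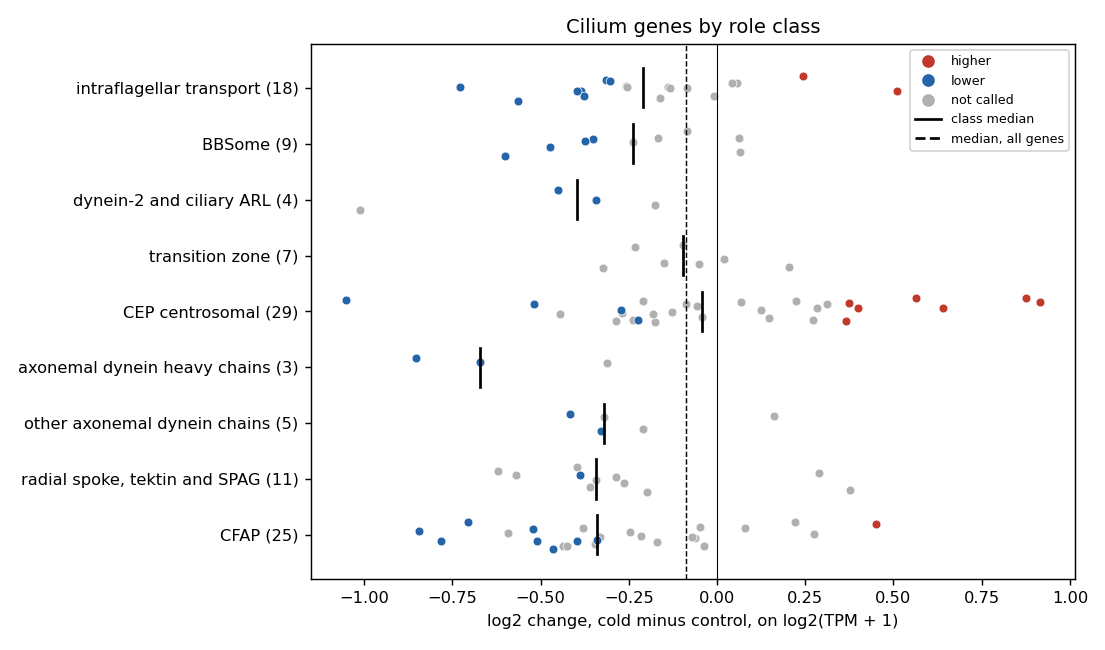
Each point is the log2 change (cold minus control, on log2(TPM + 1)) of 1 of the 111 members, grouped by class with the number of members in brackets, and coloured by its call. Short black lines are class medians and the dashed line is the median of all tested genes (-0.09). The cep class spans both sides of 0, from -1.05 to 0.92, while the medians of the axonemal classes lie between -0.67 and -0.32.

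Among the 29 centrosomal cep genes 7 rose (24.1%), 4 fell (13.8%) and 18 did not pass, against 13% and 23.6% of all tested genes. Under median-of-ratios scaling 8 rose and 2 fell (backgrounds of 18.5% and 16.8%). Without control 4 and cold 2 the counts were 7 and 3, against 2061 and 3471 of all 18795 tested genes. The falls were 2 without control 2, control 3, cold 1 or cold 2. They were 3 without control 1, control 4 or cold 3, and 5 without cold 4. The rise of largest size belonged to cep120, whose product promotes centriole elongation. It measured 1.80, 1.87, 1.75 and 1.48 TPM in control 1 to 4 and 3.80, 3.75, 4.53 and 4.53 TPM in cold 1 to 4. Every cold library lay above every control library (log2 change 0.92 ± 0.11, SE; limma adjusted p = 0.000396). Next came cep152, a scaffold that brings the kinase PLK4 to the parent centriole, with 2.104, 1.98, 1.75 and 1.66 TPM in control and 3.90, 4.10, 4.49 and 4.59 TPM in cold. Its groups were equally separate (0.88 ± 0.11, limma adjusted p = 0.000396).

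The gene cep85, whose product binds the duplication factor STIL, measured 13.1, 13.1, 14.3 and 12.6 TPM in control and 19.9, 17.6, 21.5 and 21.7 TPM in cold, again without overlap (0.57 ± 0.08, limma adjusted p = 0.000942). Its relative cep85l rose from 8.82 ± 0.346 to 11.7 ± 0.682 TPM (SD, n = 4 per group; limma adjusted p = 0.00377), and reads from related copies could be shared. The gene cep57l1, which helps to keep paired centrioles together, rose from 6.23 ± 0.975 to 10.2 ± 1.097 TPM (0.64 ± 0.12, limma adjusted p = 0.00378). Rises were also held by cep131, which encodes a protein of the satellites around centrioles (20.9 ± 0.612 to 27.3 ± 1.29 TPM), and cep192, a scaffold of the centrosome (3.16 ± 0.533 to 4.46 ± 0.175 TPM, limma adjusted p = 0.0244). The call of cep192 held in 3 of the 8 fits that left out 1 library, while the other 6 rises held in all 8.

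The 4 falls of the class were those of cep76, cep162, cep350 and cep97. The gene cep76, known for limiting the reduplication of centrioles, fell most of all called members. Its values were 4.99, 5.60, 5.78 and 5.47 TPM in control and 1.69, 2.28, 1.85 and 2.74 TPM in cold, so its highest cold library stood well under its lowest control library (log2 change -1.05 ± 0.13, limma adjusted p = 0.000373). The gene cep162, which acts at the distal end of the centriole where the transition zone forms, fell from 17.3 ± 1.75 to 11.8 ± 2.08 TPM (-0.52 ± 0.13 on the log2 scale, limma adjusted p = 0.0122). The small falls of cep350 (9.06 to 7.35 TPM) and cep97 (18.9 to 16.1 TPM), a partner of the centriole cap protein CP110, were lost after rescaling by the median of ratios, and they held in 2 and 0 of the 8 fits without 1 library.

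The remaining cep genes spread on both sides of 0 without passing. The genes cep135 (log2 change 0.07, limma adjusted p = 0.687) and cep295, both known for centriole assembly, did not pass, and cep295 had close means of 12.4 and 11.96 TPM (limma adjusted p = 0.734). The transition zone gene cep290 measured 6.70 ± 0.403 and 5.41 ± 1.33 TPM (limma adjusted p = 0.153). Cold 1, cold 2 and cold 3 (4.17, 4.47 and 6.02 TPM) lay under every control, and cold 4 (6.98 TPM) lay within the control range. Near the level limit, cep89 and cep55, a gene of cell abscission rather than of cilia, did not pass either (limma adjusted p = 0.256 and 0.305).

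Centriole and ciliary base genes outside the named families mostly fell where they were called. In a list of 61 other genes of the centriole, basal body, transition zone and ciliary traffic, 59 were tested, 6 rose (10.2%) and 19 fell (32.2%), against 13% and 23.6% of all tested genes. The lowest p belonged to plk4, the kinase that starts centriole duplication, with 0.917, 0.647, 0.679 and 0.688 TPM in control and 4.68, 4.44, 5.87 and 6.22 TPM in cold (log2 change 1.85 ± 0.13, limma adjusted p = 3.50e-05). Its partner stil rose from 0.821 ± 0.0468 to 2.98 ± 0.391 TPM (1.12 ± 0.12 on the log2 scale, limma adjusted p = 0.000244). All cold libraries of both genes exceeded all control libraries. Both averaged under 1 TPM in control and so passed the level limit only through cold, the group where they are high. The cartwheel gene sass6, which works with them and is named after its values were seen, averaged 1.90 TPM (control) and 2.51 TPM (cold) and did not pass (limma adjusted p = 0.120). The falls of lowest p were those of pde6d, a carrier of lipid-modified proteins to the cilium (23.1 ± 1.22 to 15.5 ± 0.298 TPM), and cby1, a basal body gene (14.1 ± 0.870 to 8.64 ± 0.658 TPM).

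**Figure D2:**
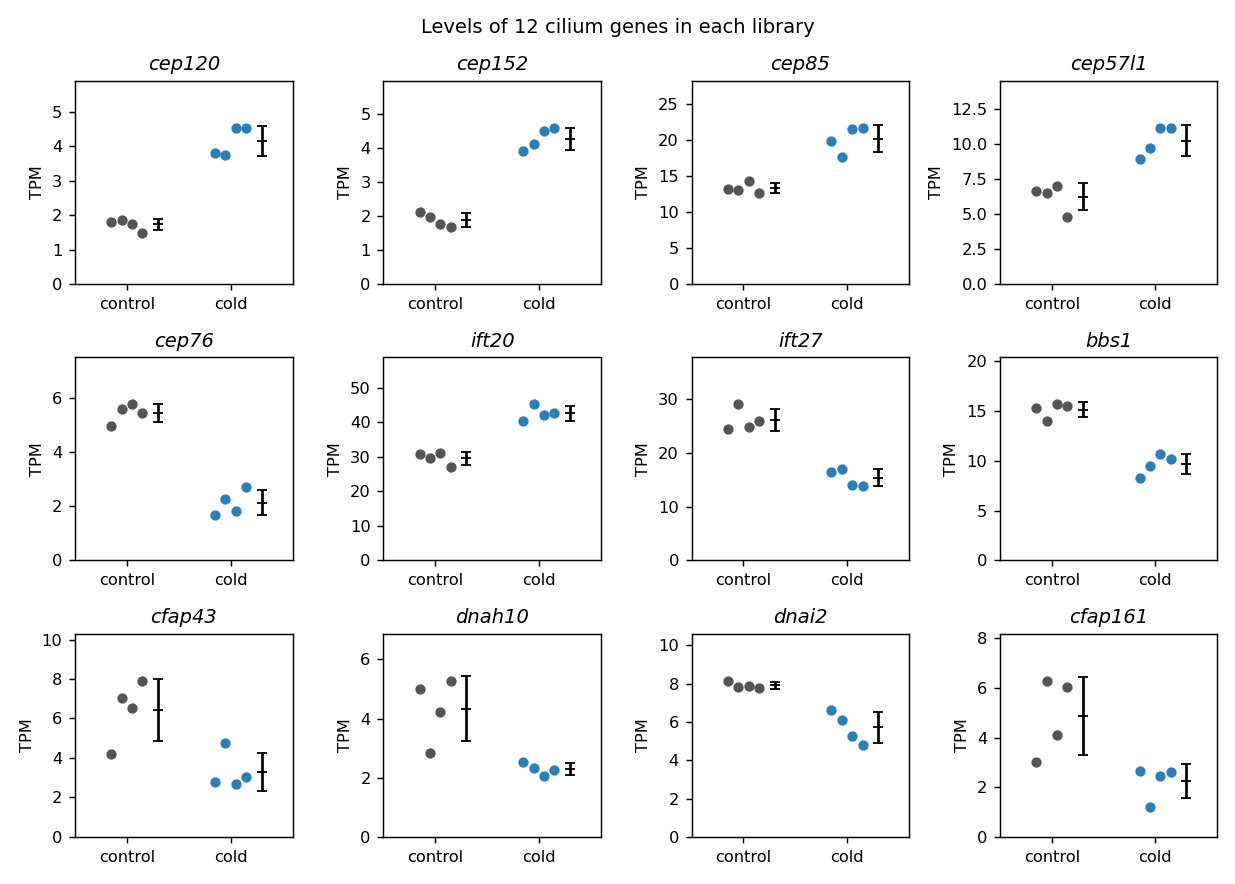
TPM of 12 members in each library (points in the order of libraries 1 to 4), with the group mean and SD as a bar to the right of each group. For cep120, cep152, cep85, cep57l1 and ift20 all cold points lie above all control points, and for the other 7 genes except cfap43 all cold points lie below all control points.

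Genes of intraflagellar transport fell more often than they rose, as did all tested genes. Of 18 members 2 rose (11.1%), 7 fell (38.9%) and 9 did not pass, against 13% and 23.6% of all tested genes. The called share was 50%, against 36.7%, and the median log2 change was -0.21, against -0.09. Under median-of-ratios scaling 2 rose and 4 fell (backgrounds of 18.5% and 16.8%). Without control 4 and cold 2 the counts were 1 and 5, against 2061 and 3471 of all 18795 tested genes. The fall of lowest p was that of ift27, a small GTPase of the IFT-B complex that helps the BBSome leave the cilium. Its levels were 24.4, 28.9, 24.8 and 25.8 TPM in control and 16.4, 16.99, 14.0 and 13.9 TPM in cold (log2 change -0.73 ± 0.09, limma adjusted p = 0.000398). No cold library came near the lowest control. The other small GTPase of the complex, ift22, measured 15.8, 13.3, 13.3 and 9.52 TPM in control and 9.72, 8.01, 8.31 and 7.38 TPM in cold (-0.56 ± 0.14, limma adjusted p = 0.0145). There the groups overlapped, since control 4 lay below cold 1.

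The IFT-A complex carries cargo back from the tip and brings membrane receptors in. Of its 6 members 3 fell (50%, against 23.6% of all tested genes). They were wdr35 (21.1 ± 0.436 to 15.8 ± 0.693 TPM, limma adjusted p = 0.00104), ift122 (14.0 to 11.1 TPM) and ttc21b (20.2 to 16.1 TPM). The last 2 calls were lost after median-of-ratios scaling and without control 4 and cold 2. They held in 5 and 4 of the 8 fits without 1 library. Of the larger IFT-B subunits, ift172 went from 7.62 ± 0.377 down to 5.60 ± 0.356 TPM (limma adjusted p = 0.00600), and ift88 fell from 6.76 to 4.999 TPM. The call of ift88 held in 3 of the 8 fits without 1 library and was lost after median-of-ratios scaling. Both wdr19 (7.33 to 5.96 TPM) and ift52 (13.7 to 11.3 TPM) lay lower in every cold library than in any control, with limma adjusted p of 0.0525 and 0.0521.

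The rises of the transport class were those of ift20 and ift81. The gene ift20, whose product also sits at the Golgi where ciliary membrane proteins are sorted, was the most highly expressed transport gene and measured 30.9, 29.6, 31.0 and 27.0 TPM in control and 40.4, 45.3, 42.1 and 42.8 TPM in cold (log2 change 0.51 ± 0.06, limma adjusted p = 0.000471). The groups were far apart relative to their spread. The gene ift81, which binds tubulin as cargo together with ift74, rose from 12.6 ± 0.174 to 15.2 ± 1.17 TPM (limma adjusted p = 0.0248), in 4 of the 8 fits without 1 library and not without control 4 and cold 2. Levels of ift57 were close, 23.2 ± 1.92 and 23.1 ± 1.66 TPM (-0.01 ± 0.08 on the log2 scale, limma adjusted p = 0.949).

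No BBSome gene rose, and 4 of 9 fell (44.4%, against 23.6% of all tested genes). Under median-of-ratios scaling 3 fell (background of 16.8%). Without control 4 and cold 2 the count was 4, against 3471 of all 18795 tested genes. Of these 4 falls 3 were also called with all libraries. The subunit gene bbs1 measured 15.3, 14.0, 15.6 and 15.5 TPM in control and 8.29, 9.48, 10.7 and 10.1 TPM in cold, without overlap (log2 change -0.60 ± 0.09, limma adjusted p = 0.000983). The subunit gene bbs2 fell from 19.9 ± 0.739 to 15.2 ± 0.475 TPM (-0.37 ± 0.06, limma adjusted p = 0.00149). Also lower were the chaperonin-like genes that help to assemble the complex, bbs10 (20.1 ± 1.56 to 15.5 ± 0.940 TPM, limma adjusted p = 0.00678) and bbs12 (1.41 ± 0.252 to 0.738 ± 0.250 TPM, limma adjusted p = 0.0426). The call of bbs12, the lowest member of the class, held in 1 of the 8 fits without 1 library, and bbs12 passed the level limit only through control. Subunits of 1 complex were not all called. The most abundant, bbs5, measured 40.3 ± 3.34 and 35.8 ± 3.05 TPM (log2 change -0.17, limma adjusted p = 0.138). Without control 4 and cold 2, bbs5 was called lower (-0.27, limma adjusted p = 0.0336) and bbs12 was not called (limma adjusted p = 0.165). The BBS8 subunit gene ttc8 measured 11.5 ± 1.35 and 11.98 ± 0.551 TPM (limma adjusted p = 0.626).

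The retrograde motor of transport, dynein-2, was represented by its intermediate chain genes wdr34 and wdr60. The gene wdr34 fell from 9.48 ± 1.61 to 6.63 ± 0.639 TPM (-0.45 ± 0.13 on the log2 scale, limma adjusted p = 0.0212), and it did not pass after median-of-ratios scaling (limma adjusted p = 0.0538). The other intermediate chain gene, wdr60, measured 11.4 ± 1.24 and 10.01 ± 1.17 TPM (limma adjusted p = 0.217).

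Dynein-2 and transport genes outside the named families were read from a list of 22, of which 1 rose and 6 fell (27.3%, against 23.6% of all tested genes). After rescaling by the median of ratios, 3 rose and 2 fell (backgrounds of 18.5% and 16.8%). The dynein-2 heavy chain gene dync2h1 fell from 4.86 ± 0.203 to 3.02 ± 0.249 TPM (-0.54 ± 0.09 on the log2 scale, limma adjusted p = 0.00215). The light intermediate chain gene dync2li1 (10.4 to 8.28 TPM) and lztfl1, a regulator of BBSome traffic (21.9 to 15.3 TPM), fell too. The rise was that of dynlt3, a light chain gene that also serves cytoplasmic dynein (46.3 to 63.4 TPM).

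None of the 7 transition zone members passed limma's test, and the same was found in every fit that left out 1 library and after median-of-ratios scaling. At an unadjusted p under 0.05 the count was also 0. Levels of nphp4 were 2.99 ± 0.336 TPM in control and 3.60 ± 0.397 TPM in cold (log2 change 0.20). The most abundant, tctn2, measured 9.98 ± 0.956 and 8.87 ± 0.519 TPM. A p that misses the threshold does not show that these levels were equal.

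**Figure D3:**
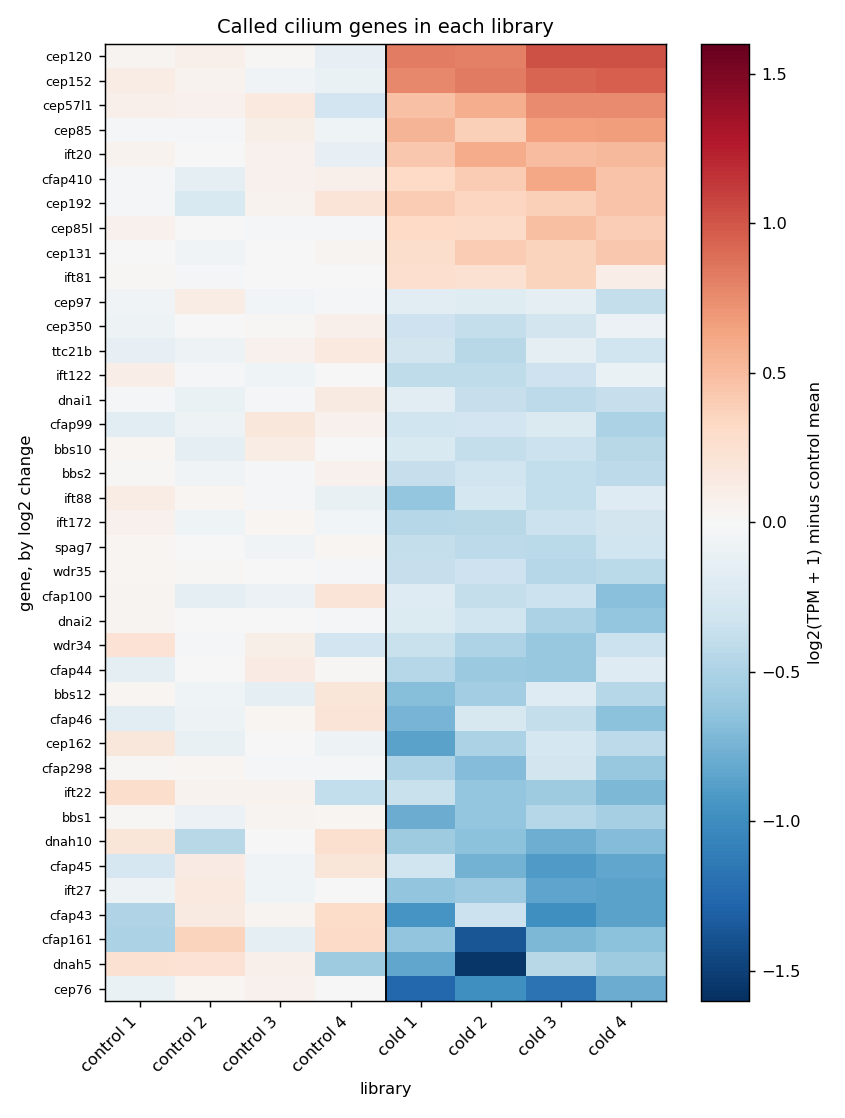
Rows are 39 of the called members ordered by log2 change and columns are the 8 libraries. Colour is log2(TPM + 1) minus the gene's control mean, red above and blue below. The 10 rises stand at the top, led by cep120, and 29 falls below them, ending with cep76.

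No gene counted with the motile shaft rose. The members counted as encoding axonemal dynein chains, spokes, tektins, central pair or doublet proteins numbered 35 above the level limit. The light chain gene dnal4 was not counted among them, though its family is named for axonemal dyneins. It was higher in every cold library than in any control and not called (log2 change 0.16), but rose after median-of-ratios scaling. Of the 35 members counted 0 rose and 11 fell (31.4%), against 23.6% of all tested genes that fell. Changes below 0 were held by 33 of 35, against 60.1% of all tested genes, with a median log2 change of -0.34. Under median-of-ratios scaling 5 of the 35 fell, a share under the 16.8% of all tested genes, and the median was -0.27. Without control 4 and cold 2 the falls were also 5, again a smaller share than that of all tested genes (3471 of 18795). Leaving out 1 library gave 5 falls without control 2, 5 without control 4, 7 without cold 1 and 12 without control 1. The falls were 8 without control 3, cold 2, cold 3 or cold 4. These genes are scarce: 26 of the 35 stayed under 5 TPM in both groups, and the median SE of their log2 changes was 0.16, against 0.10 for the other 76 members.

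Among dynein heavy chains, the motor subunits of the arms, dnah5, dnah9 and dnah10 were the members above the level limit. A further copy listed by number, dnah5l in the reference, averaged 5.40 TPM in control and 3.28 TPM in cold without passing (limma adjusted p = 0.0726), so reads may be divided between it and dnah5. The inner arm gene dnah10 measured 5.003, 2.84, 4.23 and 5.27 TPM in control and 2.54, 2.34, 2.06 and 2.25 TPM in cold (log2 change -0.67 ± 0.16, limma adjusted p = 0.0111). The cold values were close together and all under the lowest control. The outer arm gene dnah5 measured 4.42, 4.35, 3.83 and 2.08 TPM in control and 1.56, 0.544, 2.35 and 2.07 TPM in cold, with overlap through control 4 (-0.85 ± 0.28, limma adjusted p = 0.0381). Its call held in 3 of the 8 fits without 1 library and was lost after median-of-ratios scaling, and that of dnah10 was lost without control 4 and cold 2 (limma adjusted p = 0.0505). The outer arm gene dnah9 measured 1.603 ± 0.679 and 1.06 ± 0.250 TPM (limma adjusted p = 0.234).

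The intermediate chains of the outer arm fell together: dnai2 from 7.91 ± 0.167 to 5.72 ± 0.826 TPM (-0.42 ± 0.10 on the log2 scale, limma adjusted p = 0.0116) and dnai1 from 9.05 ± 0.719 to 7.01 ± 0.638 TPM (-0.33 ± 0.09, limma adjusted p = 0.01998). In both genes every cold library was under every control. The call of dnai1 was lost after median-of-ratios scaling (limma adjusted p = 0.0721). The light chain genes did not pass: dnal1 measured 14.0 ± 2.34 and 11.9 ± 1.27 TPM (limma adjusted p = 0.218), and dnal4 measured 37.2 ± 2.88 and 41.6 ± 1.15 TPM (0.0834), though dnal4 rose after median-of-ratios scaling (log2 change 0.26, limma adjusted p = 0.0147).

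Of 25 cfap members 1 rose, 8 fell and 16 did not pass (36% called, near the 36.7% of all tested genes). Median-of-ratios scaling gave counts of 2 and 4 (backgrounds of 18.5% and 16.8%). The falls were 3 without control 2, 3 without control 4, 3 without control 4 and cold 2, and 5 without control 3, cold 1, cold 2 or cold 4. They were 6 without cold 3 and 10 without control 1. The fall of lowest p was that of cfap298, needed for the assembly of dynein arms in the cytoplasm. It measured 17.1, 17.2, 16.6 and 16.5 TPM in control and 11.7, 10.03, 13.5 and 10.8 TPM in cold (log2 change -0.52 ± 0.09, limma adjusted p = 0.00227). The control values were nearly alike and the cold values more scattered, with no overlap.

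Larger changes with wider spread were those of cfap161 and cfap45, which encode proteins inside the doublet microtubules, and cfap43, which helps to tether an inner arm. The values of cfap43 were 4.21, 7.05, 6.51 and 7.91 TPM in control and 2.77, 4.75, 2.69 and 3.01 TPM in cold (log2 change -0.78 ± 0.20, limma adjusted p = 0.0147), overlapping between control 1 and cold 2. Those of cfap161 were 3.03, 6.29, 4.10 and 6.06 TPM in control and 2.67, 1.22, 2.45 and 2.61 TPM in cold (-0.85 ± 0.24, limma adjusted p = 0.0212), with no overlap, since cold 1 came just under control 1. The gene cfap45 fell from 3.96 ± 0.711 to 2.06 ± 0.602 TPM (-0.71 ± 0.17, limma adjusted p = 0.0101) and the central pair gene cfap46 from 2.56 ± 0.410 to 1.52 ± 0.400 TPM (-0.51 ± 0.15, limma adjusted p = 0.0292). Calls were lost without control 4 and cold 2 for cfap161 (limma adjusted p = 0.0860) and cfap45 (0.0539), and after median-of-ratios scaling for cfap46 (0.0504). The calls of cfap46 and cfap161 held in 3 and 6 of the 8 fits without 1 library, and those of cfap43 and cfap45 in all 8.

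The smaller falls were those of cfap44, cfap99 and cfap100, with log2 changes from -0.47 to -0.34. These calls held in 2, 1 and 1 of the 8 fits without 1 library and were lost after median-of-ratios scaling and without control 4 and cold 2. The rise was that of cfap410, a gene tied to primary cilium formation and not counted with the motile shaft, from 17.2 ± 1.27 to 23.9 ± 2.18 TPM (0.45 ± 0.08 on the log2 scale, limma adjusted p = 0.00322). The most abundant cfap genes were not called. The doublet gene cfap20 measured 33.7 ± 1.95 and 29.9 ± 1.94 TPM (limma adjusted p = 0.0815), cfap36 measured 33.4 ± 2.78 and 32.6 ± 3.78 TPM (0.795), and at the low end cfap61 (0.0845) and cfap70 (0.841) did not pass.

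In the class of radial spokes, tektins and sperm-associated antigens 1 of 11 members was called (9.09%), below the 36.7% of all tested genes. It was spag7, the most abundant member of the whole set, which fell from 86.0 ± 2.23 to 65.5 ± 2.35 TPM (-0.39 ± 0.05 on the log2 scale, limma adjusted p = 0.000401). Like spag5, a spindle gene (1.35 to 2.04 TPM, limma adjusted p = 0.0658), it carries the family name without a known place in the axoneme. In this class no tested member that encodes a spoke, tektin or central pair protein was called. The central pair gene spag6 measured 2.14, 3.16, 3.04 and 4.32 TPM in control and 1.78, 2.31, 1.05 and 2.06 TPM in cold (limma adjusted p = 0.0538). Levels of rsph10b were 1.23 ± 0.589 and 0.719 ± 0.173 TPM, and those of rsph3 1.69 ± 0.550 and 1.31 ± 0.255 TPM (limma adjusted p = 0.250 and 0.420). The dynein arm assembly gene spag1 measured 11.1 ± 0.972 and 13.9 ± 2.20 TPM (limma adjusted p = 0.0797) and rose after median-of-ratios scaling (log2 change 0.38, limma adjusted p = 0.0222).

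Motile cilium genes outside the named families also held more falls than rises, as did all tested genes. Of 58 such genes 55 were tested, 1 rose and 15 fell (27.3%, against 23.6% of all tested genes), with a median log2 change of -0.34. Median-of-ratios scaling gave 1 rise and 12 falls (backgrounds of 18.5% and 16.8%). Genes of lowest p included factors that preassemble dynein arms: dnaaf1 measured 2.60, 2.60, 2.85 and 4.07 TPM in control and 0.889, 1.01, 0.704 and 1.03 TPM in cold (log2 change -1.07 ± 0.15, limma adjusted p = 0.000835), and pih1d3 fell from 6.46 ± 1.44 to 2.88 ± 0.199 TPM. No cold library of either gene reached the lowest control. Falls of similar size were those of pih1d2 (1.89 to 0.414 TPM) and dydc2 (6.73 to 3.12 TPM). In cold dnaaf1 and pih1d2 averaged under 1 TPM, so they passed the level limit only through control.

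**Figure D4:**
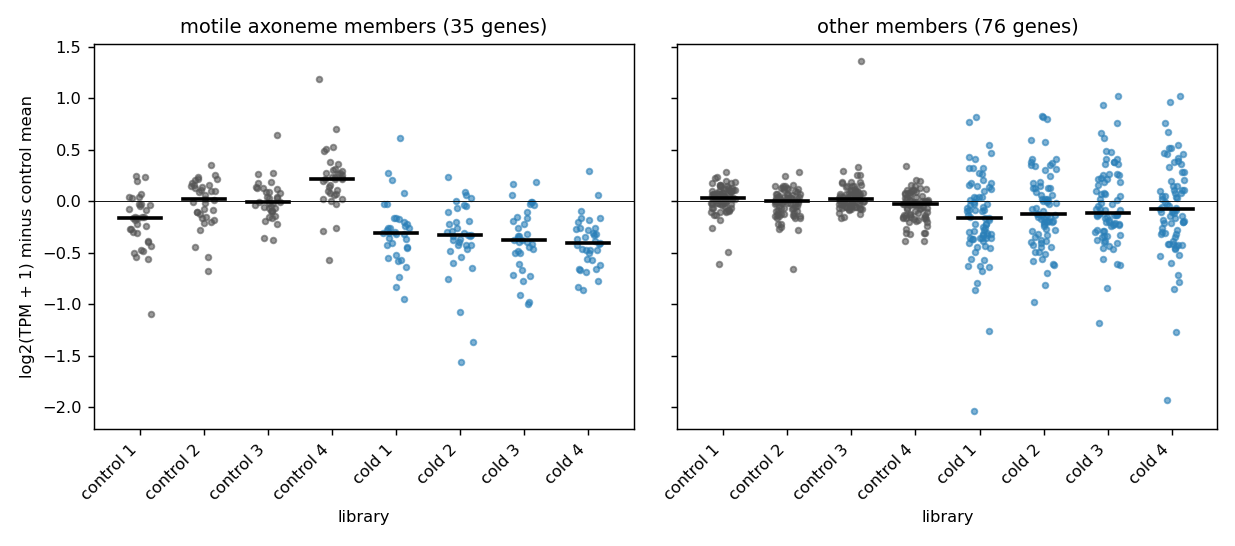
Each point is 1 member in 1 library, as log2(TPM + 1) minus its control mean, with the library median as a black line. The left panel holds the 35 motile shaft members and the right panel the other 76. Library medians of the motile members run from -0.16 to 0.22 in control and from -0.40 to -0.31 in cold, and those of the others from -0.03 to 0.03 in control and from -0.16 to -0.08 in cold.

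Motile shaft genes also differed in a shared direction between control libraries. Control 4 held the highest control value for 23 of the 35 motile members and control 1 the lowest for 19. Among the other 76 members control 4 was highest for 16 and lowest for 34, and control 1 highest for 25 and lowest for 10. The cold libraries were more alike: each was highest for between 4 and 12 of the motile members and lowest for between 6 and 11, with median deviations from the cold mean between -0.07 and 0.02. Summed over the 42 motile genes listed, levels were 150, 173, 166 and 195 TPM in control 1 to 4 and 130, 131, 129 and 122 TPM in cold 1 to 4. The control sums were spread and the cold sums close together, with no overlap.

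Markers of cells that carry cilia were read beside these levels. In a list of ependymal and choroid plexus markers 14 genes were matched, none of them at 0 in all libraries, 13 were tested, 1 rose (enpp2) and 1 fell (ccdc153, 3.45 to 2.03 TPM, with overlap). The called share was 15.4%, under the 36.7% of all tested genes, while 12 of the 13 had a change below 0 and the median was -0.33. Their summed level was 2353 to 2700 TPM in control and 1910 to 2747 TPM in cold, mostly from s100b (2301 and 2202 TPM), which radial glia also express. Of 4 tested markers of cerebrospinal fluid-contacting neurons 0 rose and 2 fell (gata3 and tal2, or 50%, against 23.6% of all tested genes). Their sums were 35.7 to 41.5 TPM in control and 23.97 to 37.1 TPM in cold, and the defining channel gene of these neurons, pkd2l1, was listed at or near 0. In a list of 30 photoreceptor and pineal genes, 9 were tested, 0 rose and 3 fell (33.3%, against 23.6% of all tested genes). The summed level was 14.2, 34.6, 59.7 and 89.1 TPM in control and 8.46, 54.8, 10.4 and 10.1 TPM in cold. The listed genes of highest level were gngt1 and rho. After rescaling by the median of ratios, 0 photoreceptor and pineal genes rose and 1 fell. Among the markers of cerebrospinal fluid-contacting neurons 0 rose and 1 fell, and among the ependymal and choroid plexus markers 1 rose and 0 fell. That scaling called 16.8% of all tested genes lower. Control 4, highest for most motile members, and cold 2 held the highest photoreceptor sums of their groups. The part of these cells in the levels of the motile genes was not tested.

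Regulators and partners of cilia were read from further lists. A list held 17 genes with an RFX name or known as regulators of ciliogenesis. Of these 12 were tested, 0 rose and 4 fell (33.3%, against 23.6% of all tested genes). RFX factors bind the promoters of many cilium genes. The copies rfx1 (29.9 ± 1.36 to 18.1 ± 1.34 TPM, or -0.70 ± 0.07 on the log2 scale, limma adjusted p = 0.000156) and rfx1a (16.5 ± 0.997 to 9.53 ± 1.53 TPM) fell, as did rfx7b. Also lower was rfxank, which carries the RFX name without a known part in ciliogenesis. The RFX genes best known from ciliated cells, rfx2 and rfx3, chosen after their values were seen, measured 19.4 and 18.0 TPM and 14.2 and 12.6 TPM in control and cold and did not pass (limma adjusted p = 0.502 and 0.243). The multiciliation regulator genes mcidas and gmnc stayed under 1 TPM in both groups and were not tested.

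Of 20 tested genes of ciliary tubulin and its modification 2 rose and 7 fell (45% called, against 36.7% of all tested genes). Median-of-ratios scaling gave 3 and 5 (backgrounds of 18.5% and 16.8%). The tubulin gene tubb4bl (437 ± 20.1 to 279 ± 26.3 TPM) and tpgs1, a subunit of the enzyme that adds glutamate to tubulin (6.69 ± 1.39 to 2.50 ± 0.546 TPM), fell. So did ttll1 and ttll12, genes of the ligase-like (ttll) family. Tubulin genes serve the whole cell and are not particular to cilia. In the list of hedgehog and ciliary signalling genes 3 of 21 tested rose and 4 fell (33.3% called, under the 36.7% of all tested genes). The co-receptor gene gas1b rose (3.10 to 5.90 TPM). The hedgehog-binding gene hhip (18.97 to 11.5 TPM), adcy3b, a copy of the adenylate cyclase of neuronal cilia (7.19 to 4.60 TPM), and the ciliary receptor gene mchr1b (1.45 to 0.568 TPM) fell. The last of these passed the level limit only through control.

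Over all 6 such lists together 189 genes outside the named families were tested, of which 13 rose and 55 fell (36% called, against 36.7% of all tested genes). Median-of-ratios scaling gave 20 rises and 42 falls (backgrounds of 18.5% and 16.8%). Without control 4 and cold 2 there were 7 and 44, against 2061 and 3471 of all 18795 tested genes. A further 17 tested genes are listed only by number but carry a matching symbol in the reference. Of these 1 rose (5.88%) and 4 fell (23.5%), against 13% and 23.6% of all tested genes. Copies of 1 gene went opposite ways, with spag9b higher (28.4 to 42.3 TPM) and spag9a lower (36.3 to 25.5 TPM). Among the falls were ift70 (15.2 ± 0.649 to 9.96 ± 0.863 TPM, limma adjusted p = 0.000769) and dnai4 (9.38 ± 2.19 to 5.58 ± 0.538 TPM). One more is a second dnal1 copy (1.66 to 0.280 TPM), which passed the level limit only through control. Reads may thus be divided between copies of that gene.

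**Figure D5:**
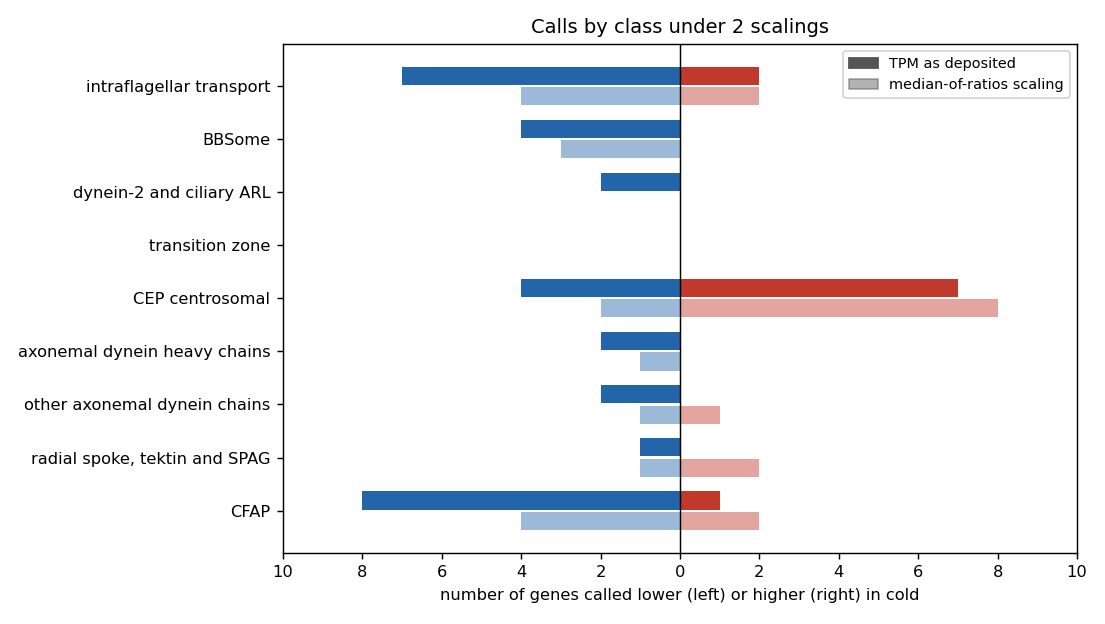
Bars give the number of members called lower (left) and higher (right) in cold for each class, with TPM as deposited (dark) and after median-of-ratios scaling (pale). In the cep class rises went from 7 to 8 and falls from 4 to 2, and in the intraflagellar transport class falls went from 7 to 4. Among all tested genes rises went from 13% to 18.5% and falls from 23.6% to 16.8%.

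Neighbouring genes could add reads to a member where gene spans overlap, and the counting of strands is not given. Of 108 members found in the reference, 27 overlap a protein-coding gene, including 8 of the 40 called: ift122, ift172, ift20, ift22, bbs1, bbs12, cfap410 and cfap43. None of their tested overlapping neighbours was called. For instance tnfaip1, which overlaps ift20, measured 7.45 and 5.83 TPM in control and cold, and orc2, which overlaps cfap410, measured 2.403 and 2.75 TPM. The most abundant was a gene listed by number that overlaps ift22, with 145 and 138 TPM, against 13.0 and 8.35 TPM for ift22. Whether reads of that neighbour entered the ift22 values was not tested.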

How the data were processed

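Libraries came from bead-selected polyadenylated RNA and an Illumina TruSeq kit, per the labels' protocols. The submitters' processing notes name the aligner HISAT2 without a version. How reads were counted, on which build and annotation, and how strand and repeated matches were handled is not stated in the sources used here. The authors deposited 1 list of TPM values per library (29533 genes). The unit was read from the values, which sum to 1000000 in each library.

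Cold was compared with control on log2(TPM + 1) by limma 3.58.1 (R 4.3.3) with the trend option, over 18863 genes whose group mean reached 1 TPM in control or cold. Tests were two-sided with Benjamini-Hochberg adjustment. Fold changes on this scale understate those of low genes. No set test was run. The members and lists were chosen with earlier results of these data known. Lists held 399 symbols, matched with copy suffixes and with reference symbols for numbered genes (assembly O_niloticus_UMD_NMBU, names and neighbours only), and 3 matches that are other genes (aif1l, rhob and asmtl) were dropped. Not every gene the symbol pattern takes in is reported here. Named genes were, in each class, called members with an absolute log2 change of at least 0.5, the 3 of lowest p, the 2 of highest level, the 1 of highest p, and those at the level limit, in each list up to 4 called genes of lowest p, and in marker lists the 2 of highest level. Other genes named are further called members or were chosen after their values were seen. Alternatives were another pseudocount, other filters, median-of-ratios scaling, robust fitting, a replicate block and left-out libraries.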

Additional observations from a re-analysis of the deposited data

Results flagged for a closer look

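In 13 of 222 groups of 4 libraries (111 members, 2 groups each) 1 library stood far from the other 3, by Dixon's test of the gap against the range. Chance gives about 1 in 20 such groups, so the number is near that share. The high values were those of arl13a in control 3 (9.56 TPM, the others 1.61 to 2.58), cfap70 in control 3 (3.96 TPM, the others 1.65 to 1.80), dnah9 in control 4 (2.62 TPM, the others 1.19 to 1.33) and bbs9 in control 1 (6.56 TPM). In cold they were those of dnah9 (1.43 TPM), cfap43 (4.75 TPM, the others 2.69 to 3.01) and cep112 (6.46 TPM, the others 3.45 to 3.79) in cold 2, and cfap53 in cold 1 (4.84 TPM). The low values were those of cfap126 in control 1 (1.49 TPM, the others 2.96 to 3.22), cfap161 in cold 2 (1.22 TPM, the others 2.45 to 2.67), ift57 in cold 1 (20.6 TPM), and bbs4 (12.9 TPM) and bbs7 (11.8 TPM) in cold 4.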

How the results depend on the processing

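The count of members that rose (10) stayed between 7 and 15 under all alternatives run. The count that fell (30) was 16 after median-of-ratios scaling and 19 with the replicate block, and between 20 and 27 without 1 library. Of the 40 calls, 24 held in all 8 fits without 1 library (8 rises and 16 falls). The members' median log2 change (-0.22) was -0.28 with a pseudocount of 0.1 and -0.14 after median-of-ratios scaling. For the other cilium lists the 13 rises were 20 after median-of-ratios scaling, 7 with the replicate block, 7 without control 4 and cold 2, and 6 to 11 without 1 library. Adding 17 tested genes named through the reference gave 11 rises and 34 falls, and without spag5, spag7 and cep55 there were 10 and 29, both chosen after seeing the data.

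Among named members only uncalled ones changed sign. After median-of-ratios scaling cep295 had 0.035, cfap36 0.060 and ift57 0.087, and without control 4 and cold 2 cfap36 had 0.067. Without 1 library the values ran from -0.14 to 0.027 for cep295, from -0.10 to 0.031 for cfap36, from -0.16 to 0.14 for cfap70 and from -0.042 to 0.043 for ift57. The cause was not tested. No pairing of libraries by replicate number was seen. Same-numbered libraries had correlations of deviations of -0.01, -0.15, 0.05 and -0.23, and 0 of 4 control libraries matched best with its own number in cold. With 4 libraries per group this check cannot exclude a pairing. TPM keeps no depth, so counting error of genes near 1 TPM is unknown.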
